A study of Mus musculus with 8 samples.

Results

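The mitochondrial ribosomal protein genes of the liver were compared between mice labelled miR-93 knockout and mice labelled wild-type. Members were the protein-coding genes whose symbol starts with Mrps or Mrpl followed by a digit. This gave 78 of the 56748 gene rows in the deposited counts table, 29 named for the small subunit and 49 for the large subunit. Another 5 rows with such symbols are processed pseudogenes and were dropped; their highest count in any library was 6. All 8 libraries are liver RNA from mice fed high fat-high fructose for 16 weeks, a diet model labelled MASLD (metabolic dysfunction-associated steatotic liver disease). Of these, 4 carry the knockout label and 4 the wild-type label; no chow-fed group was analysed here. The labels name no strain, sex or promoter, and do not say whether the miR-93 deletion was restricted to a cell type. Nor do they tie each library to an animal of its own. The p-values therefore cover library-to-library spread alone, and that spread may be technical.

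Mitochondria carry their own ribosome, which translates the small set of respiratory chain subunits encoded by mitochondrial DNA. Its small subunit reads the mRNA on a 12S rRNA scaffold, and its large subunit joins amino acids on a 16S rRNA scaffold. Both rRNAs come from the mitochondrial genome, while every ribosomal protein is encoded in the nucleus and imported. Some of the proteins have a counterpart in bacterial ribosomes and the others exist only in mitochondria. The liver is rich in mitochondria and depends on them for fat burning and urea production.

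The microRNA removed in the knockout is printed first, followed by the promoters of 4 members that the results turn on. RefSeq (GRCm38.p6) gives the mature microRNA, with the seed (bases 2 to 8, which pair with targets) in capitals.
miR-93-5p: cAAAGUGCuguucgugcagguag
The promoters run from 250 bases before to 50 bases after the start site. They are shown because Mrpl18 was the sole member that fell, Mrps12 had the smallest p among small-subunit members, and Mrpl17 and Mrps18b rose and hold 2 kinds of motif each. Capitals mark matches, on either strand, to the ETS motif CCGGAAG (the family of GABP), the YY1 motif AAGATGGC and the NRF1 core GCGCATGC. These 3 factor families are known for binding promoters of nuclear genes for mitochondrial proteins. The build of this table is not the mm39 build of the counts.
Mrpl18, chr17:12916042-12916341, minus strand: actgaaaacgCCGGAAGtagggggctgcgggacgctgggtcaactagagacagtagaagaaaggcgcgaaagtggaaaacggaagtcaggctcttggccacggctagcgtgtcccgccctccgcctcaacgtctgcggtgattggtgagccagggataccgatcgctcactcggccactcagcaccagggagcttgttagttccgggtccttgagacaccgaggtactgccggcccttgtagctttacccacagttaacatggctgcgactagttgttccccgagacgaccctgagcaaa
Mrps12, chr7:28741772-28742071, minus strand: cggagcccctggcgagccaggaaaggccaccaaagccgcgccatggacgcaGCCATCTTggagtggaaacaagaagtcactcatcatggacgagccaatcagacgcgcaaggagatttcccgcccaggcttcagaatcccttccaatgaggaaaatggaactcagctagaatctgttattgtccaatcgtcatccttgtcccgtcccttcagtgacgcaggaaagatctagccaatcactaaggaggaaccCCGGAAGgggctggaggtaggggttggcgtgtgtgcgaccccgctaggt
Mrpl17, chr7:105811038-105811337, minus strand: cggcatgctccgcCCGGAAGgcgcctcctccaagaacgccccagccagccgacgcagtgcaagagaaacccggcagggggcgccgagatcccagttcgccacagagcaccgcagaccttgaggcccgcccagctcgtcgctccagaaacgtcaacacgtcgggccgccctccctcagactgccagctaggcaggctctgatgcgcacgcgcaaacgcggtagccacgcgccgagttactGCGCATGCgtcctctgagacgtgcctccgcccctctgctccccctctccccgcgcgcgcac
Mrps18b, chr17:35916391-35916690, minus strand: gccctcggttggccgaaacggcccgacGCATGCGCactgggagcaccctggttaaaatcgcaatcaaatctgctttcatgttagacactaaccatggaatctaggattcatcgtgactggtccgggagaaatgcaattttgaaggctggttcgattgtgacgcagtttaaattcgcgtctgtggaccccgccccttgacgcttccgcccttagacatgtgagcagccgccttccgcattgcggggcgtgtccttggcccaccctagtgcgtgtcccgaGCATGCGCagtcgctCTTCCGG

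Depth differed between the genotypes, from 9187279 to 10966019 total counts in knockout and from 5085860 to 7451026 in wild type. Transcripts of the mitochondrial genome took 8.08% to 15.03% of the counts in knockout and 25.4% to 77.8% in wild type. Wild-type replicate 4 stood apart with the 77.8%, which left 1131446 nuclear counts, and a single count there equals 0.562 CPM against 0.0730 to 0.152 CPM elsewhere. CPM here means counts per 1000000 of the library size after TMM scaling, which makes most genes comparable between libraries. The TMM factor of wild-type replicate 4 was 0.350, so CPM values there are not shares of its counts. Its mitochondrial mRNAs summed to 2182390 CPM. This library lay below wild-type replicates 1 to 3 for 55.8% of the 77 tested members and above them for 22.1%, against 46.7% and 37% of all tested genes. Member counts and called members are therefore given with and without it. Among marker lists, hepatocyte genes were detected throughout, at a summed 36184 to 40980 CPM in knockout and 43886 to 57258 in wild type, with 2 of 6 (Alb and Tat) lower in knockout. Kupffer cell markers were higher in 4 of 7 (summed 113 to 134 against 35.2 to 49.5 CPM in wild-type replicates 1 to 3 and 150.1 in replicate 4; 6 of 7 without that library) and sinusoidal endothelial markers in 5 of 6 (73.1 to 153 against 41.3 to 50.05 CPM). B cell markers were lower in 4 of 5 (9.42 to 72.4 against 34.9 to 483 CPM) and T and NK cell markers in 2 of 3 tested, of 6 listed (4.12 to 5.10 against 6.46 to 14.3 CPM). Of the stellate markers 1 of 6 was lower (40.9 to 48.7 against 45.5 to 57.8 CPM in wild-type replicates 1 to 3 and 107 in replicate 4), of the erythroid markers 1 of 3 tested was lower (284 to 381 against 334 to 501 CPM), and of the cholangiocyte markers 1 of 2 tested was higher (31.4 to 33.0 against 10.1 to 20.3 CPM). Neutrophil markers summed to 3.07 to 4.21 against 1.51 to 4.50 CPM, with none of 1 tested called and 2 of 5 at 0 counts in every library. The part of these cell types, of depth and of the mitochondrial share in the results below was not tested. In whole tissue, fewer cells of a type and less RNA per cell cannot be told apart.

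A subset of the mitochondrial ribosomal protein genes rose modestly in knockout, Mrpl18 fell, and most members did not pass the test. Of the 77 tested members, 17 rose in knockout and 1 fell past an adjusted p of 0.05 in edgeR's quasi-likelihood test, adjusted over all 13204 tested genes. Over all tested genes, 10.4% rose and 10.7% fell. The calls depend on TMM or a like scaling: by library size only, the median gene moved to 0.54 on the log2 scale and 17 of the 18 calls were lost, with Mrpl18 at -0.71 and the 17 risers at 0.96 to 1.77. The rises were small, from 1.34-fold to 2.39-fold with a median of 1.64-fold, while the fall of Mrpl18 was 2.78-fold. Of the members, 57 had a log2 fold change (knockout over wild type) above 0, as did 6544 of the 13204 genes. The median member stood at 0.17 on that scale and the median gene at -0.01. Each library kept a similar total: members took 0.303% to 0.315% of nuclear counts in knockout and 0.290% to 0.309% in wild type. These ranges overlapped through wild-type replicate 4 alone, since replicates 1 to 3 held 0.290% to 0.300%, all below knockout.

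Without wild-type replicate 4, 23 members rose and 2 fell, while 17.8% of the 13777 genes then tested rose and 17.5% fell. All 18 members called with 8 libraries remained called in the same direction. The median member was then at 0.09. Every knockout library lay above every wild-type library for 21 members and below for 3, against 16.3% and 14% of tested genes. The member counts rest on single libraries in the other direction as well: leaving out any other library in turn gave 2 to 6 small-subunit and 5 to 11 large-subunit calls, against 7 and 11 with all 8. Without knockout replicate 4, 2 and 5 were called, without knockout replicate 2 or 3 and without wild-type replicate 2, 2 and 6, without wild-type replicate 3, 3 and 7, and without knockout replicate 1, 4 and 8. With any 1 library left out, 7 members stayed called: Mrps12, Mrps16, Mrpl18, Mrpl44, Mrpl12, Mrpl28 and Mrpl20.

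**Figure D1:**
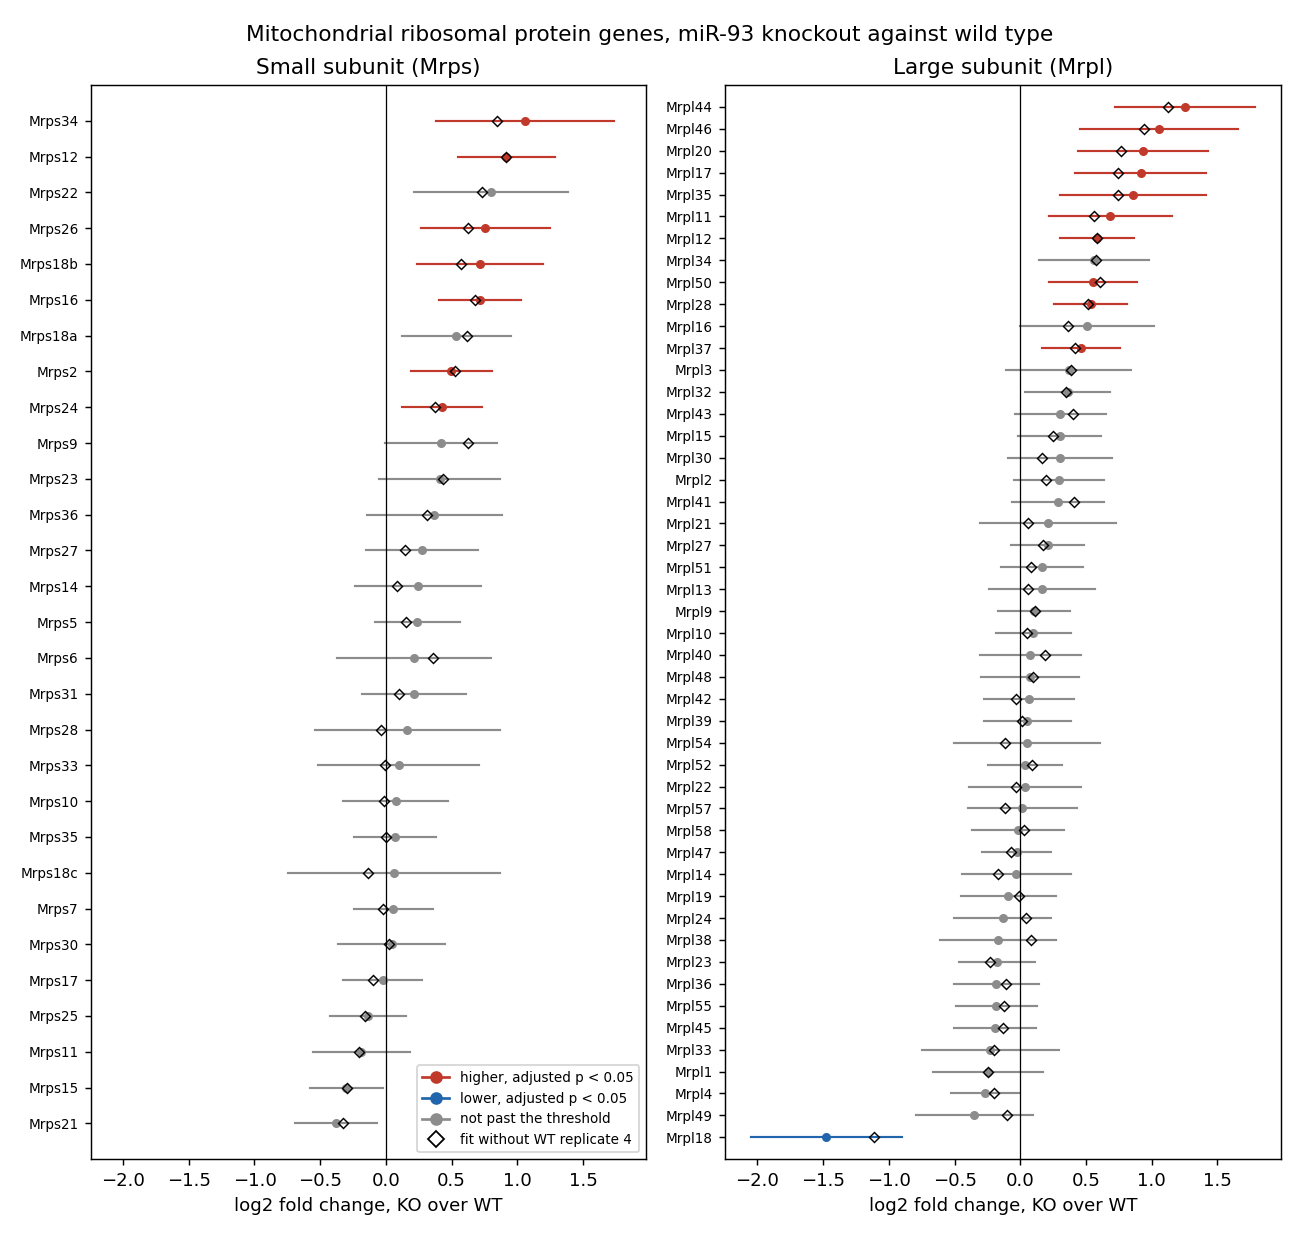
Log2 fold change of knockout over wild type for each tested member, with the 95% interval of the edgeR fit as a line, small subunit left and large subunit right. Filled circles use 8 libraries, and open diamonds show the fit without wild-type replicate 4. Most members sit near 0, 17 are called higher and Mrpl18 alone is called lower.

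In the small subunit 7 of 29 tested members rose and none fell, with a median of 0.24 on the log2 scale. Without wild-type replicate 4 the count was 10 higher and 1 lower, with a median of 0.15. Over all tested genes 10.4% rose and 10.7% fell, or 17.8% and 17.5% without that library. Mrps12, the counterpart of the bacterial decoding-centre protein S12, had 12.7, 17.6, 14.9 and 17.2 CPM in knockout replicates 1 to 4. In wild-type replicates 1 to 4 it had 8.72, 7.28, 8.95 and 7.87 CPM. The groups did not overlap, and the wild-type libraries lay close together, replicate 4 included. The log2 fold change was 0.92 ± 0.17 (SE, n = 4 per group, edgeR adjusted p = 0.00353), and it was 0.92 without wild-type replicate 4. Mrps16, the counterpart of bacterial S16, had 18.97, 22.6, 22.4 and 21.6 CPM in knockout. It had 14.5, 12.5, 13.3 and 10.7 CPM in wild type, so every knockout library was higher. Its change was 0.71 ± 0.14 (edgeR adjusted p = 0.00521) and 0.68 without wild-type replicate 4.

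The other 5 risers of the small subunit were less secure, and each lost its call on removal of at least 1 of the 7 other libraries. Mrps34, a protein found only in mitochondrial ribosomes, had the largest change of the subunit. It had 39.6, 34.5, 43.0 and 44.3 CPM in knockout and 28.4, 19.5, 19.7 and 3.94 CPM in wild type. The lowest value is wild-type replicate 4, from 7 counts, and without that library the change went from 1.06 ± 0.31 (edgeR adjusted p = 0.0328) to 0.84 (3.23e-05). In the GENCODE annotation 63.4% of the exon bases of Mrps34 overlap Mapk8ip3 on the opposite strand and 37.0% overlap Nme3 on the same strand. The use of strand in counting is unknown from the labels, so the origin of these reads is uncertain. Mrps18b, a relative of bacterial S18, stood at 23.0, 25.7, 20.02 and 24.3 CPM against 14.9, 16.6, 15.8 and 5.62 CPM. Wild-type replicate 4 was again far below the rest, and the change of 0.72 ± 0.22 (edgeR adjusted p = 0.0395) read 0.57 without it (0.00147). Mrps26, also specific to mitochondria, had 14.4 to 17.3 CPM in knockout and 3.94 to 11.98 CPM in wild type (0.76 ± 0.22, edgeR adjusted p = 0.0335). Mrps2, the counterpart of bacterial S2, had 24.5 to 31.7 CPM against 17.6 to 21.5 CPM (0.50 ± 0.14, 0.0279). Mrps24, the counterpart of bacterial S3, had 28.5 to 35.5 CPM against 19.7 to 27.8 CPM (0.43 ± 0.14, 0.0493) and was the member nearest inside the threshold. For these 3 genes too the groups did not overlap, and without wild-type replicate 4 the changes were 0.63, 0.53 and 0.37, all called. An antisense gene, Gm16279, covers 30.5% of the exon bases of Mrps18b, and Urgcp shares 15.4% of those of Mrps24.

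Mrps22, specific to mitochondria, lay just outside the threshold with 8.30, 15.9, 11.3 and 11.2 CPM in knockout and 8.59, 4.67, 7.89 and 4.50 CPM in wild type. Knockout replicate 1 fell among the wild-type libraries, and the change was 0.80 ± 0.27 (edgeR adjusted p = 0.0534). Without wild-type replicate 4 it was called higher, at 0.73 (0.0134), as were Mrps9 (0.63, 0.000417) and Mrps18a (0.62, 0.00536). For Mrps9, the counterpart of bacterial S9, the 4 knockout libraries held 20.7 to 22.1 CPM and wild-type replicates 1 to 3 held 13.6 to 14.6, but wild-type replicate 4 held 26.4. Mrps21 had the most negative log2 fold change of the subunit; it is the counterpart of bacterial S21 and the highest small-subunit member per exon length (57.4 CPM per kb). It had 41.8, 29.5, 41.3 and 34.5 CPM in knockout and 46.4, 48.0, 45.4 and 52.9 CPM in wild type. All knockout libraries were lower, at -0.38 ± 0.14 (edgeR adjusted p = 0.0809), and without wild-type replicate 4 it was called lower (-0.33, 0.0337).

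The 3 mammalian relatives of bacterial S18 gave different values. Mrps18b is described above. Mrps18a, which sits in the large subunit in ribosome structures despite its name, had 13.7 to 17.3 CPM in knockout and 7.74 to 13.5 CPM in wild type (0.54 ± 0.19, edgeR adjusted p = 0.0662). Mrps18c had 6.43, 5.81, 5.92 and 6.55 CPM in knockout and 8.08, 4.26, 8.19 and 0.562 CPM in wild type, where the lowest value is a single count in replicate 4. Its change was 0.06 ± 0.37 (0.932), with a 95% interval of -0.75 to 0.87, and it read -0.14 without that library. The differences among the 3 genes were not tested. Mrps30, also a large-subunit protein in structures and the lowest small-subunit name per exon length (2.25 CPM per kb), had 12.2 to 16.6 CPM in knockout and 11.5 to 19.2 CPM in wild type, and the groups overlapped (0.04 ± 0.19, 0.898). Mrps36, which is now also known as a component of the oxoglutarate dehydrogenase complex, had 6.39 to 9.76 CPM against 4.50 to 8.04 CPM (0.37 ± 0.23, 0.284). Placing these names by structure left 26 tested small-subunit members with 7 higher, and 50 large-subunit members with 10 higher and 1 lower.

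In the large subunit 10 of 48 tested members rose and 1 fell, with a median of 0.10. Without wild-type replicate 4, 13 rose and 1 fell, with a median of 0.08. Over all tested genes 10.4% rose and 10.7% fell, or 17.8% and 17.5% without that library. Mrpl18, the counterpart of the bacterial L18 protein that holds 5S rRNA in the central protuberance, had 67.1, 55.7, 61.1 and 65.5 CPM in knockout. In wild type it had 118, 163, 127 and 294 CPM. Every wild-type library was above every knockout library, and replicate 4 was the highest, from 523 counts. The log2 fold change was -1.48 ± 0.26 (SE, n = 4 per group, edgeR adjusted p = 0.00279), and -1.11 without replicate 4 (2.28e-08), where the fall was 2.16-fold. Mrpl18 was also the large-subunit member with the highest level per exon length, 85.0 CPM per kb over the 8 libraries and 67.1 without wild-type replicate 4.

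Mrpl44, a mitochondrion-specific protein with an RNase III-like fold, had the largest rise of all members. It had 10.99, 14.2, 12.3 and 13.5 CPM in knockout and 5.43, 5.77, 6.52 and 1.69 CPM in wild type. The groups were well apart, and the wild-type minimum is 3 counts in replicate 4. The change was 1.25 ± 0.24 (edgeR adjusted p = 0.00468), or 1.12 without that library. Mrpl12, the stalk protein that draws translation factors to the ribosome, had 66.8, 71.6, 64.1 and 76.6 CPM in knockout and 51.3, 40.7, 48.7 and 45.5 CPM in wild type. Here wild-type replicate 4 lay within the other wild-type libraries, and the change was 0.58 ± 0.13 (edgeR adjusted p = 0.00924) with all libraries and 0.58 without it. Mrpl28, a counterpart of bacterial L28, had 30.9, 27.9, 30.02 and 27.4 CPM against 22.7, 19.7, 18.96 and 17.99 CPM (0.54 ± 0.13, edgeR adjusted p = 0.0130, and 0.51 without wild-type replicate 4). Its groups did not overlap.

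Mrpl20, whose bacterial counterpart L20 is known as an early binder in large-subunit assembly, had 39.8, 38.3, 43.4 and 40.3 CPM in knockout and 27.03, 22.8, 21.8 and 8.43 CPM in wild type. Mrpl17, a counterpart of bacterial L17, had 53.1, 59.1, 60.6 and 61.6 CPM in knockout and 41.3, 32.4, 31.7 and 14.1 CPM in wild type. In both genes wild-type replicate 4 was the lowest library by a wide margin. The change of Mrpl20 was 0.93 ± 0.23 (edgeR adjusted p = 0.0145) and 0.76 without that library, and that of Mrpl17 was 0.92 ± 0.23 (0.0160) and 0.74. Mrpl46, specific to mitochondria, had 11.2 to 18.01 CPM in knockout and 3.37 to 10.6 CPM in wild type (1.06 ± 0.27, 0.0194). Mrpl35, the counterpart of bacterial L35, had 16.5 to 20.2 CPM against 5.06 to 15.5 CPM (0.86 ± 0.25, 0.0344). Mrpl11, which builds the base of the stalk, had 21.01 to 26.0 CPM against 7.31 to 19.6 CPM (0.69 ± 0.21, 0.0428). The groups did not overlap for these 3 genes, although the gap between them was narrow, and without wild-type replicate 4 the changes were 0.94, 0.74 and 0.56. Mrpl50 (35.6 to 41.1 against 20.3 to 30.8 CPM, 0.56 ± 0.15, 0.0254) and Mrpl37 (26.2 to 28.9 against 16.3 to 23.2 CPM, 0.46 ± 0.14, 0.0330) are mitochondrion-specific and were likewise higher in every knockout library, at 0.61 and 0.42 without wild-type replicate 4. Mrpl17, Mrpl46, Mrpl50, Mrpl37, Mrpl35 and Mrpl11 each lost the call on removal of at least 1 of those 7 libraries.

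**Figure D2:**
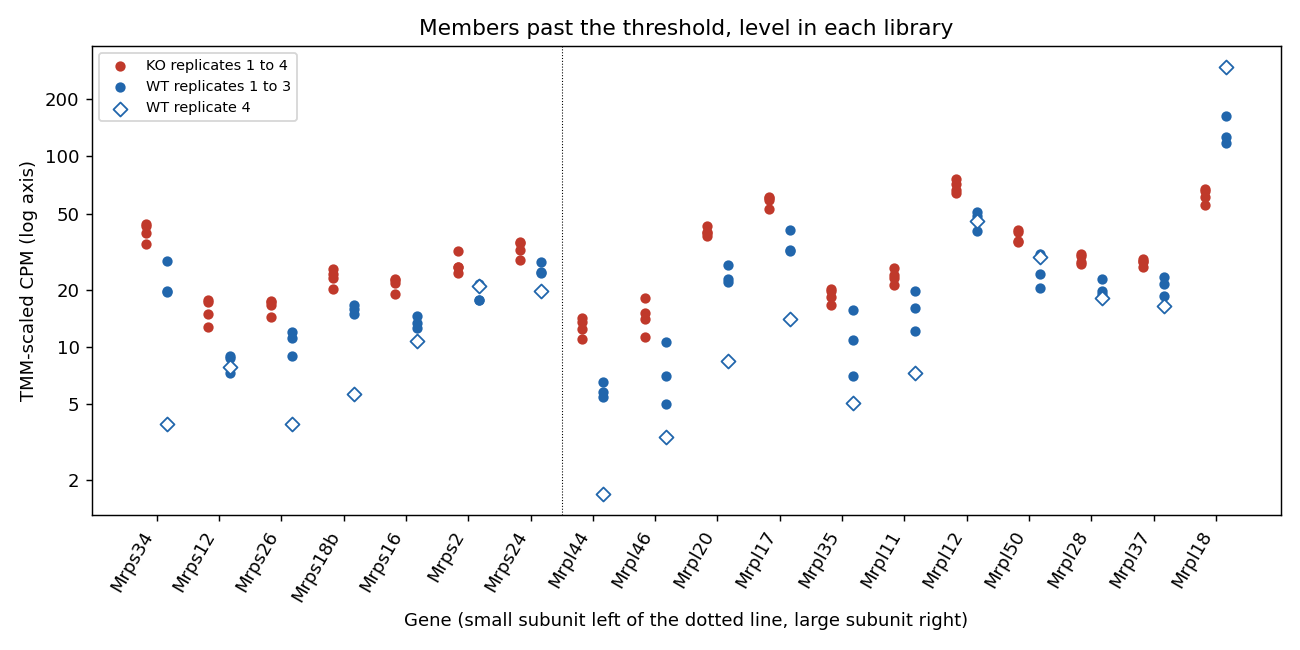
TMM-scaled CPM on a log axis for the 18 members past the threshold, with 1 point per library: knockout red, wild-type replicates 1 to 3 blue, wild-type replicate 4 as an open diamond. In every gene the 4 knockout points lie on 1 side of the wild-type points, and replicate 4 is the lowest wild-type library for 13 of the 17 risers.

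Mrpl34, the counterpart of bacterial L34, was just outside the threshold at 21.1, 26.7, 25.6 and 25.1 CPM in knockout and 20.8, 10.9, 18.1 and 16.9 CPM in wild type. Its groups did not overlap, by a gap between knockout replicate 1 and wild-type replicate 1 that was very small. The change was 0.56 ± 0.19 (edgeR adjusted p = 0.0575), and without wild-type replicate 4 it was called higher (0.57, 0.00842), as were Mrpl43 (0.41, 0.0178) and Mrpl41 (0.41, 0.0204), both specific to mitochondria. Mrpl33, the lowest per exon length at 0.861 CPM per kb, had 4.29 to 7.41 CPM in knockout and 5.61 to 7.83 CPM in wild type (-0.23 ± 0.24, 0.534). Mrpl53 had 0 counts in every library, which by 3 counts allows up to 0.219 CPM in the deepest and 1.69 CPM in the shallowest library for counting error. In the annotation 88.0% of its exon bases lie within a longer gene on the same strand, Gm42688, which held 8 to 19 counts in knockout and 0 to 7 in wild type. The remaining members did not pass. Over all 59 members that did not pass, the absolute log2 fold change ran from 0.02 to 0.80 with a median of 0.18. For 57 of them the 95% interval of the change lay within 1 of zero on the log2 scale and for 23 within 0.5, so larger changes fall outside those intervals.

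The subunits were next summed in each library, as a description with no test. Small-subunit members summed to 636, 659, 673 and 663 CPM in knockout replicates 1 to 4 and to 615, 549, 609 and 445 CPM in wild type. Every knockout library lay above every wild-type library, with replicate 4 the lowest. Large-subunit members summed to 1474, 1496, 1558 and 1518 CPM in knockout and to 1491, 1365, 1437 and 1520 CPM in wild type, and these groups overlapped. Mrpl18 made up 3.72% to 4.55% of the large-subunit sum in knockout, 7.90% to 11.9% in wild-type replicates 1 to 3 and 19.3% in replicate 4. Without it the large subunit summed to 1407 to 1497 CPM in knockout and to 1203 to 1373 CPM in wild type, and the groups no longer overlapped. The ratio of large to small was 2.27 to 2.32 in knockout and 2.42, 2.49, 2.36 and 3.42 in wild type, so it was lower in every knockout library. That separation rested on Mrpl18: without it the ratio was 2.21, 2.19, 2.22 and 2.19 in knockout and 2.23, 2.19, 2.15 and 2.76 in wild type, and the groups overlapped.

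**Figure D3:**
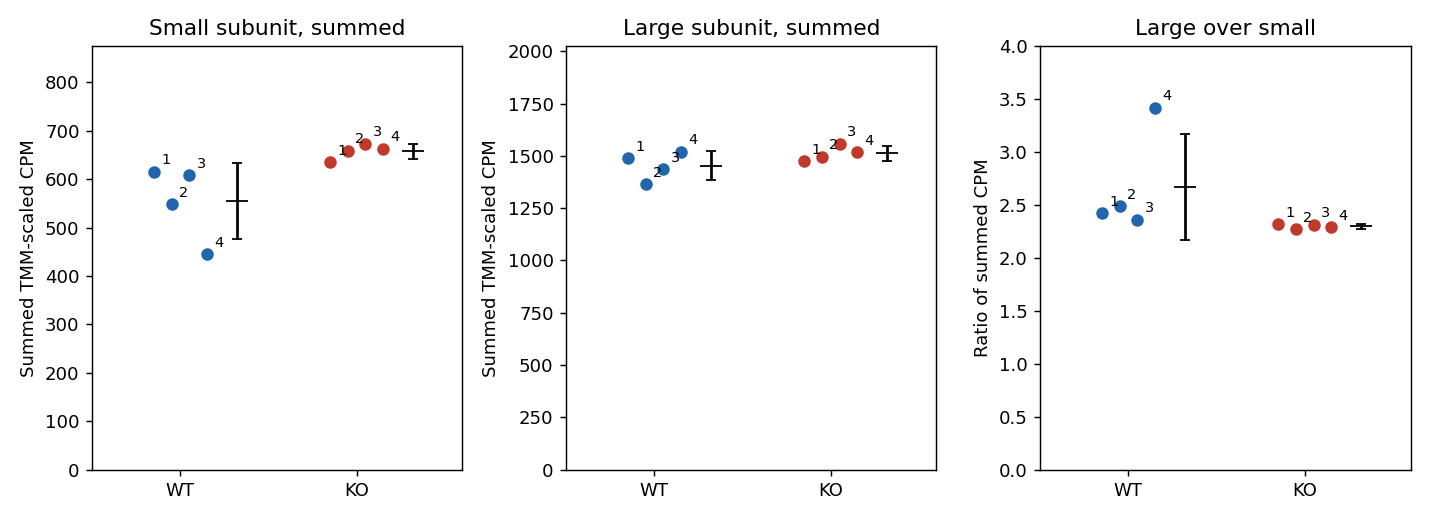
Summed TMM-scaled CPM of the small-subunit members, of the large-subunit members, and their ratio, by genotype, with 1 point per library labelled by replicate and the mean ± SD (n = 4) beside the points. The small-subunit sum is 636 to 673 in knockout and 445 to 615 in wild type, and wild-type replicate 4 has the highest ratio, 3.42.

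The members were also counted by ancestry. Of 46 tested members with a bacterial counterpart, 10 rose and 1 fell, and of 31 tested mitochondrion-specific members 7 rose and none fell. Over all tested genes 10.4% rose and 10.7% fell, or 17.8% and 17.5% without wild-type replicate 4. Among the relatives of bacterial S18, only Mrps18c was counted as a bacterial counterpart. Mrps18a and Mrps18b were counted as mitochondrion-specific, so Mrps18b is among those 7 risers. The medians were 0.19 and 0.17. Without wild-type replicate 4 the counts were 12 higher and 2 lower, and 11 higher and none lower, with medians of 0.07 and 0.10. No difference between the classes was tested.

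Counts of the ribosome's 2 rRNA genes were lower in knockout, together with those of the other transcripts of the mitochondrial genome. The rRNA genes held far fewer counts than mt-Co1: in wild-type replicate 1, 1906 CPM for mt-Rnr1 and 1725 for mt-Rnr2 against 87962. Whether such counts follow the amount of rRNA in the tissue was not tested. The median log2 fold change was -3.15 for the 2 rRNAs and -3.14 for the mitochondrial mRNAs. Without wild-type replicate 4 these medians were -1.66 and -1.78. A change of the rRNAs beyond that shared fall was not tested. The 12S rRNA gene mt-Rnr1 had a log2 fold change of -3.29 ± 0.76 (edgeR adjusted p = 0.0147) and the 16S rRNA gene mt-Rnr2 one of -3.01 ± 0.75 (0.0199). Without wild-type replicate 4 they were -1.79 and -1.53, and mt-Rnr2 did not pass without knockout replicate 2 (0.0554) or 4 (0.0538). As a share of all counts, mt-Rnr1 took 0.0599% to 0.110% in knockout and 0.203% to 0.242% in wild-type replicates 1 to 3, with 0.643% in replicate 4. The ratio of 16S to 12S counts was 1.08, 1.05, 1.09 and 1.00 in knockout and 0.905, 0.855, 0.902 and 0.872 in wild type, so every knockout library was higher.

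Other genes of mitochondrial translation were counted by list, against 21% of all tested genes past the threshold in either direction with all libraries. Without wild-type replicate 4, 17.8% of all tested genes rose and 17.5% fell, which is the background for counts from that fit. Of 5 mitoribosome proteins with other names, Chchd1 rose (0.72 ± 0.21, edgeR adjusted p = 0.0345), and Dap3, a GTP-binding small-subunit protein, did not pass (-0.58 ± 0.23, 0.100, or -0.27 without wild-type replicate 4). Of 15 named translation factors 2 rose and 1 fell. Tufm, the elongation factor that delivers aminoacyl-tRNA, rose from a mean of 32.3 to 62.1 CPM (0.92 ± 0.16, 0.00271), Gfm1, the translocation factor, rose (0.66 ± 0.20, 0.0392) and the initiation factor gene Mtif2 fell (-0.50 ± 0.15, 0.0398). Of 23 assembly factors 1 rose and 2 fell. These were Mtg1, a GTPase of large-subunit assembly (1.10 ± 0.18, 0.00177), Mrm1, a 16S rRNA methyltransferase (-1.17 ± 0.24, 0.00627), and Eral1, a 12S rRNA chaperone (-0.60 ± 0.13, 0.00805). The medians of these 3 lists were -0.19, 0.20 and -0.14. In the fit without wild-type replicate 4 the counts were 1 higher and 2 lower, 4 higher and 2 lower, and 2 higher and 5 lower, with medians of -0.27, 0.19 and 0.10, so the median of the assembly factors changed sign. Each gene called here stayed called in that fit, with Chchd1 at 0.59, Tufm at 0.83, Gfm1 at 0.58, Mtif2 at -0.57, Mtg1 at 1.05, Mrm1 at -0.998 and Eral1 at -0.57. Chchd1, Gfm1 and Mtif2 each lost the call on removal of at least 1 of those 7 libraries, while Tufm, Mtg1, Mrm1 and Eral1 kept it with any 1 library left out.

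Of 20 mitochondrial tRNA synthetase and amidotransferase genes, Iars2 (0.72 ± 0.23, edgeR adjusted p = 0.0479) and Gatb (0.58 ± 0.19, 0.0482) rose and Lars2 fell (-2.56 ± 0.48, 0.00383). Leaving out wild-type replicate 4, 4 of the 20 rose and 2 fell, against 17.8% and 17.5% of all genes then tested. Iars2 was then at 0.56, Gatb at 0.47 and Lars2 at -2.44. Lars2 varied widely in wild type, with 429, 140, 1015 and 687 CPM in replicates 1 to 4. In knockout it had 66.0 to 134 CPM. Its edgeR adjusted p was 0.0466 in the fit without wild-type replicate 4, near the threshold. Of 17 genes for mitochondrial DNA expression and RNA processing, the RNase P subunit genes Hsd17b10 (0.72 ± 0.21, 0.0310) and Prorp, listed as 1110008L16Rik (0.92 ± 0.25, 0.0223), rose and the helicase gene Supv3l1 fell (-0.65 ± 0.18, 0.0260). In that fit 4 of these 17 rose and 4 fell, with Hsd17b10 at 0.54, Prorp (1110008L16Rik) at 0.94 and Supv3l1 at -0.49. Among 10 nuclear regulators 1 rose and 4 fell. Gabpa, the DNA-binding ETS subunit of GABP, rose from a mean of 26.5 to 42.8 CPM (0.69 ± 0.14, 0.00633), while Gabpb1, its partner (-0.80 ± 0.19, 0.0133), and Myc (-1.25 ± 0.28, 0.0106) were among those that fell. The counts were again 1 and 4 without wild-type replicate 4, with Gabpa at 0.69, Gabpb1 at -0.73 and Myc at -1.23. All 12 tested mRNAs of the mitochondrial genome fell (median -3.14, or -1.78 without wild-type replicate 4), with mt-Nd4l at -2.74, mt-Co1 at -3.40 and mt-Co2 at -3.46. Their counts were very unequal: 4 to 37 per library for mt-Nd4l, 372 to 2093 for mt-Co2 and 234155 to 1464282 for mt-Co1. The gene mt-Atp8 had 0 counts in every library. The reason for these gaps was not tested. Of 37 nuclear complex I subunits 4 rose and none fell (median 0.11), with Ndufb11 at 0.49 and Ndufv1 at 0.60, whereas without wild-type replicate 4, 7 rose and 10 fell. With all libraries, cytosolic ribosomal proteins rose in 33 of 75 cases with none lower (median 0.56), with Rpl4 at 1.22, Rplp0 at 0.96 and Rps4x at 0.80. Without wild-type replicate 4 they rose in 57 of 75 with none lower (median 0.41). The difference from the medians of both mitochondrial subunits was not tested. Iars2, Gatb, Hsd17b10, Prorp, Supv3l1, Gabpb1, Ndufb11 and Ndufv1 also lost the call on removal of at least 1 of them.

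**Figure D4:**
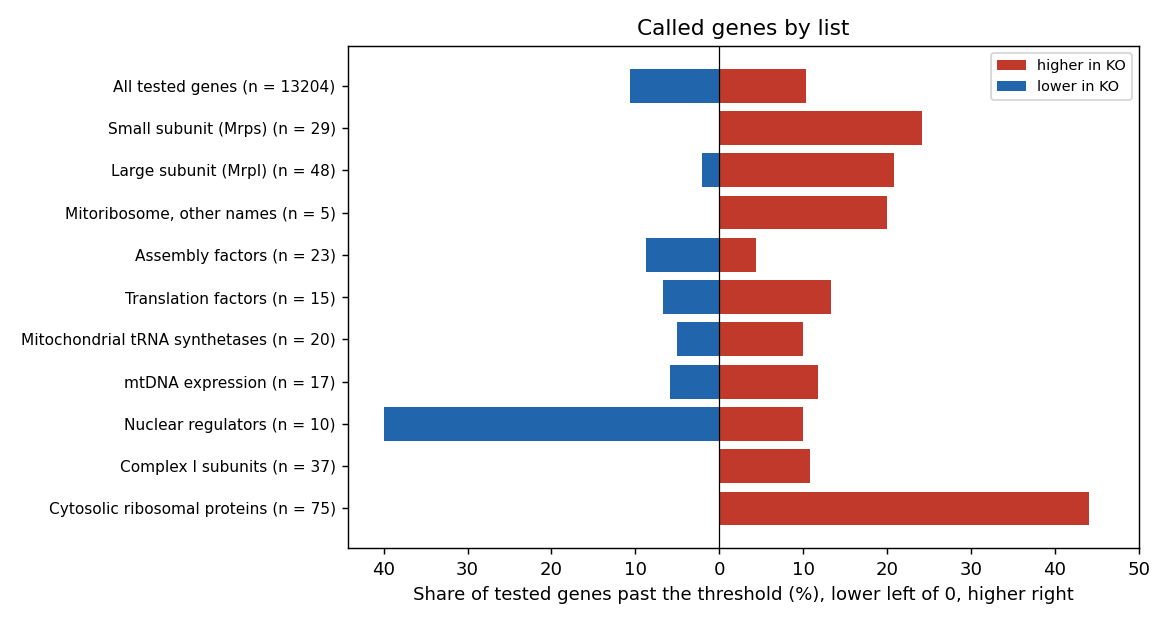
Share of tested genes past the threshold in each list, with genes lower in knockout drawn left of 0 and genes higher drawn right, and the number tested in brackets. Both mitochondrial subunits have more higher than lower genes, as do the cytosolic ribosomal proteins, while over all tested genes the shares are 10.4% and 10.7%.

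Promoter sequence was then examined for features that the naming rule did not use. RefSeq promoters matched 69 of the 78 members by symbol, 66 of them with a single entry. The ETS motif CCGGAAG was found on either strand in 37.7% of member promoters, against 12.9% of 17492 protein-coding genes and 20.3% of the 9227 tested genes with a promoter entry. It was in 42.3% of small-subunit and 34.9% of large-subunit promoters. The YY1 motif AAGATGGC was in 17.4% of member promoters, 3.57% of all and 5.41% of tested genes, and the NRF1 core GCGCATGC in 11.6%, 3.94% and 6.03%. The full palindromic NRF1 site was in 3 member promoters. The NRF1 core lies within that full site. In all, 38 members (55.1%) held at least 1 of them, against 28.7% of tested genes. Other gene lists held such motifs as well, though not each motif above its share in tested genes. Among 56 cytosolic ribosomal protein promoters 41.1% held the ETS motif, 8.93% the YY1 motif, 5.36% the NRF1 core and 55.4% any of the 3. Among 32 complex I promoters these shares were 12.5%, 21.9%, 9.38% and 43.8%. Of 31 ETS matches, 28 lay within 100 bases of the start site, while those of Mrpl18 and Mrpl17 printed above lie farther upstream. Among the 16 risers with a promoter entry 31.2% held the ETS motif, and among the 51 members that did not pass 37.3% did. A match describes letters only.

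**Figure D5:**
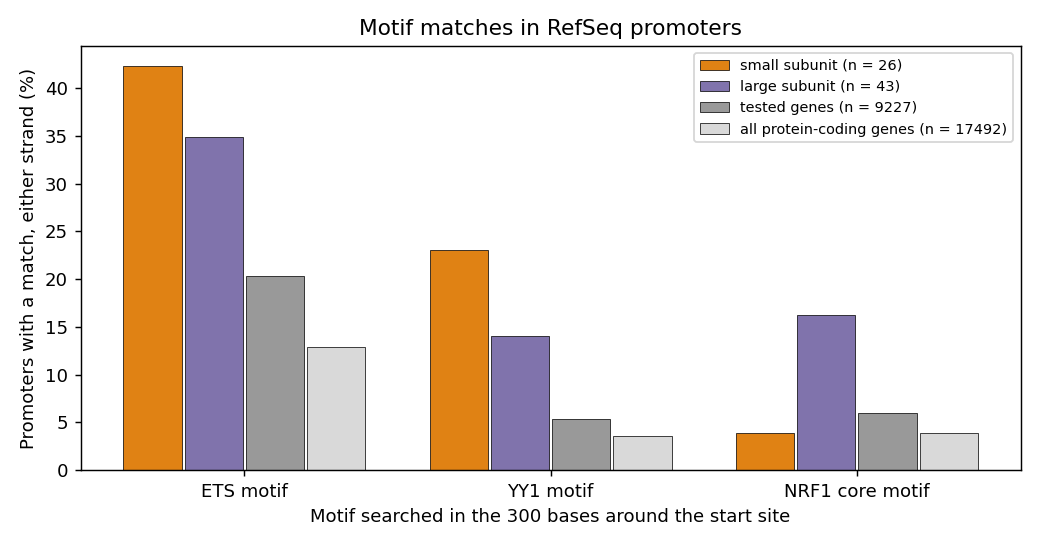
Share of promoters with at least 1 match on either strand to the ETS, YY1 and NRF1 core motifs, for small-subunit members, large-subunit members, tested genes and all protein-coding genes. The ETS motif is in 42.3% and 34.9% of the subunits' promoters and in 20.3% of those of tested genes.

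Matches to the miR-93-5p seed were counted in the longest 3' UTR that GENCODE M21 (GRCm38) gives for each gene. The 7-base match GCACTTT was present in 7 of 78 members (8.97%), against 14.6% of 11579 tested genes with a UTR. The UTRs of members were shorter, with a median of 388.5 bases against 1164. Of the 17 risers, 2 held a match, and the sites are shown with the match in capitals. The site of Mrpl35 starts at UTR base 844 and that of Mrps24 at base 6.
Mrpl35: gagtagcaggGCACTTTcatcttgtgt
Mrps24: aaagtGCACTTTtctccagtag
The other 5 members with a match did not pass the threshold: Mrps5 (0.24 on the log2 scale), Mrps35 (0.07), Mrpl1 (-0.25), Mrpl51 with 2 sites (0.17) and Mrpl3 (0.37).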

How the data were processed

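The deposited table holds raw read counts per gene and library, made by the authors. Per the submitters' processing notes, cutadapt 4.2, STAR 2.7.10a and the mm39 build were used; the counting tool, its use of strand and its handling of reads with several matches are not given in the sources used here. All 8 count columns were used. Symbols came from GENCODE M21 (GRCm38) for 52125 of 56748 gene IDs; the 4623 unnamed IDs stayed in the fit.

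Counts were filtered with filterByExpr, scaled by TMM and compared with the quasi-likelihood test of edgeR 4.0.16 (R 4.3.3), with robust estimation, no covariate and Benjamini-Hochberg adjustment over 13204 genes at 0.05. Log2 fold changes are knockout minus wild type. The test was checked on simulated counts with the same spread setting for every gene and library. That simulation held no outlying library such as wild-type replicate 4, so it does not cover the effect of that library on the calls. Alternatives used other scalings, filters and tools (DESeq2 1.42.0, limma 3.58.1), the replicate number as a block, and each library left out. Depth limits low genes most in wild-type replicate 4, where counting is coarsest.

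Members and lists were chosen with earlier results of these data known. Named members are those past the threshold, those nearest to it, the extremes of level and change, members that failed the filter, and Mrps30, Mrps18a, Mrps18b, Mrps18c, Mrps36 and Dap3; in other lists, up to 3 called genes with the smallest p. A gene this rule names is not reported here. Levels per kb divide the mean CPM by annotated exon length, taken as all exon bases of all annotated transcripts of the gene. That length was 7326 bases for Mrpl33, 6666 for Mrps30, 739 for Mrps21 and 1398 for Mrpl18. Ranks per kb therefore depend on the annotated transcripts as well as on the counts.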

Additional observations from a re-analysis of the deposited data

Results flagged for a closer look

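A gap test (Dixon's, at the 95% level) was run on 122 sets of 4 libraries and marked 10 of them; chance marks about 1 set in 20. Among members, Mrps18b was low in wild-type replicate 4 (5.62 CPM) and Mrps30 was low in knockout replicate 1 (12.2 CPM). The ratio of summed large-subunit to small-subunit members was high in wild-type replicate 4 (3.42). In the same library Dap3 was high at 91.7 CPM, as were mt-Nd4l at 16.3 CPM, mt-Co1 at 823374 CPM, mt-Co2 at 1177 CPM, mt-Rnr1 at 18381 CPM and mt-Rnr2 at 16030 CPM. These TMM-scaled values are not shares of that library's counts. The cytosolic ribosomal protein gene Rps4x was low in wild-type replicate 2 (75.2 CPM).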

How the results depend on the processing

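With all libraries 7 small-subunit and 11 large-subunit members passed. Scaling by library size only moved the median of all genes by 0.54 on the log2 scale and left 1 and 0 members called. Voom with sample quality weights called 12 small-subunit members, and kept all 18 calls. Leaving out 1 library at a time gave 2 to 11 small-subunit and 5 to 14 large-subunit calls, with wild-type replicate 4 left out giving the highest of both. Other causes of these shifts were not tested. The replicate block gave 2 and 5 calls and kept 7 of the 18. Same-numbered libraries did not deviate together (correlations -0.19, -0.03, -0.07 and -0.09). Among the wild-type libraries, no knockout library correlated best with the one of its own number. DESeq2, its size factors, upper-quartile scaling, no filter, and leaving out mitochondrial genes kept 16 to 18 of the 18 calls. All 18 called members kept their direction in all 16 alternatives.

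Among the genes picked by the naming rule given above, signs turned for 6, and the cause was not tested. Other genes with a value in the text, such as Mrpl1 and Tcp1, were not followed through all alternatives. Over all 77 tested members, 12 turned sign without wild-type replicate 4, none of them called in either fit and their absolute log2 fold changes were at most 0.17. With library size only, Mrps21 read 0.20, Mrpl33 0.34, Dap3 0.14 and Mtif2 0.029. Without wild-type replicate 2, Mrps30 read -0.070 and Mrps18c -0.084. Leaving out 1 library at a time gave at most 0.23 for Mrps30 and 0.29 for Mrps18c (both without wild-type replicate 1). Mrps18c read -0.14 with voom and -0.14 without wild-type replicate 4.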

Other observations

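Neighbours were examined after the values were seen. In GENCODE M21, 33 of the 78 members start within 1000 bases of the start of an opposite-strand protein-coding gene, overlapping genes included. These make 32 distinct pairs, since Mrpl46 and Mrps11 face each other. In 30 pairs both genes were tested, and 14 pairs had changes of the same sign. Mrpl18 and Tcp1, which encodes a subunit of the cytosolic chaperonin, were the 1 pair in which both fell. Tcp1 had 235, 225, 249 and 228 CPM in knockout and 343, 372, 331 and 305 CPM in wild type (-0.53 ± 0.13, edgeR adjusted p = 0.0132, and -0.57 without wild-type replicate 4). The 2 genes share 10.1% of the exon bases of Mrpl18 on opposite strands, so reads there cannot be assigned without strand. In 1 pair the calls were opposite, with Mrps18b higher and Ppp1r10 lower (-0.45 ± 0.12, edgeR adjusted p = 0.0227, and -0.42 without wild-type replicate 4). With all 8 libraries, no pair had both genes called higher. Without wild-type replicate 4, both were called higher for Mrpl50 (0.61) with Zfp189 (0.82) and for Mrpl43 (0.41) with Twnk (0.43). Twnk overlaps 33.4% of the exon bases of Mrpl43 on the opposite strand.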
